A study of Mus musculus with 15 samples.

Results

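Matrix metalloproteinases (MMPs) and their tissue inhibitors (TIMPs) were followed across murine mononuclear phagocyte (MP) subtypes. The 9 genes, Mmp8, Mmp9, Mmp12, Mmp14, Mmp19, Mmp25, Timp1, Timp2 and Timp3, were taken by symbol from the 38924 Ensembl genes of the count files. The rule names them by family and holds no threshold on a measured value, but they were proposed with earlier results of these data known. RNA-seq was run on 15 libraries, with 3 replicates for each of 5 sorted subtypes. From spleen came Ly6C+ monocytes, CD8+ DCs as DC1 and CD4+ DCs as DC2, while lung-draining LNs gave CD103+ DCs as DC1 and CD11b+ DCs as DC2. All mice were naïve females of strain C57BL/6, aged 6 to 8 weeks by the sample descriptions, with no transgene and no treatment, and each replicate pooled cells from 5 of them. LN and spleen came from different cohorts, and the LN gate kept cells with high MHC class II to leave out resident DCs, whereas splenic DCs were sorted as positive for it, so that organ, cohort and gate cannot be told apart. Tissues were digested with collagenase D, a bacterial protease mixture, and cells were enriched with CD11c or CD11b beads before the sort.

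MMPs are zinc-dependent endopeptidases that cleave collagens, elastin, other matrix proteins and many secreted or cell-surface proteins. Most are secreted as inactive precursors that need removal of a propeptide, while the membrane-type MMPs are held at the cell surface. TIMPs bind the active site of MMPs, and MMPs of DCs and monocytes have been studied chiefly for their part in crossing basement membranes and moving through tissue.

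Libraries held 4531243 to 10233914 counts on genes, with no molecular identifiers, so that intervals on counts cover counting error only. All defining markers of a subtype exceeded a mean of 1 CPM (counts divided by a library size scaled by TMM) in it, and 4 of the 5 lists had their highest sum in the subtype they name. The exception was the list for LN CD11b+ DCs, whose sum was 6191 to 7832 CPM there and 10052 to 12095 CPM in LN CD103+ DCs, where its members Ccr7 and Fscn1, shared by both LN lists, were higher. Itgam (CD11b) was at 110 ± 17.8 CPM in LN CD11b+ and 2.56 ± 1.38 CPM in LN CD103+ DCs, and Itgae (CD103) at 4.25 ± 2.38 and 27.2 ± 10.8 CPM. LN CD103+ DC replicate 1 stood apart in its summed B cell markers, at 218 CPM against 15.3 and 20.05 CPM in the other replicates of that subtype. Of the 9 genes, 8 passed the filter of over 1 CPM in at least 3 libraries, and all 8 differed among subtypes in the edgeR F test at an adjusted p under 0.05, against 73.5% of the 14456 genes tested. Mmp8 passed the filter only through the 3 monocyte libraries, where it was high, so that its calls were largely set by the filter. Timp3 exceeded 1 CPM only in LN libraries, and Mmp9 only in libraries of splenic CD4+ and LN CD11b+ DCs. The filter thus favoured their calls between these groups and the others. Timp1 stayed below the filter and was not tested.

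**Figure D1:**
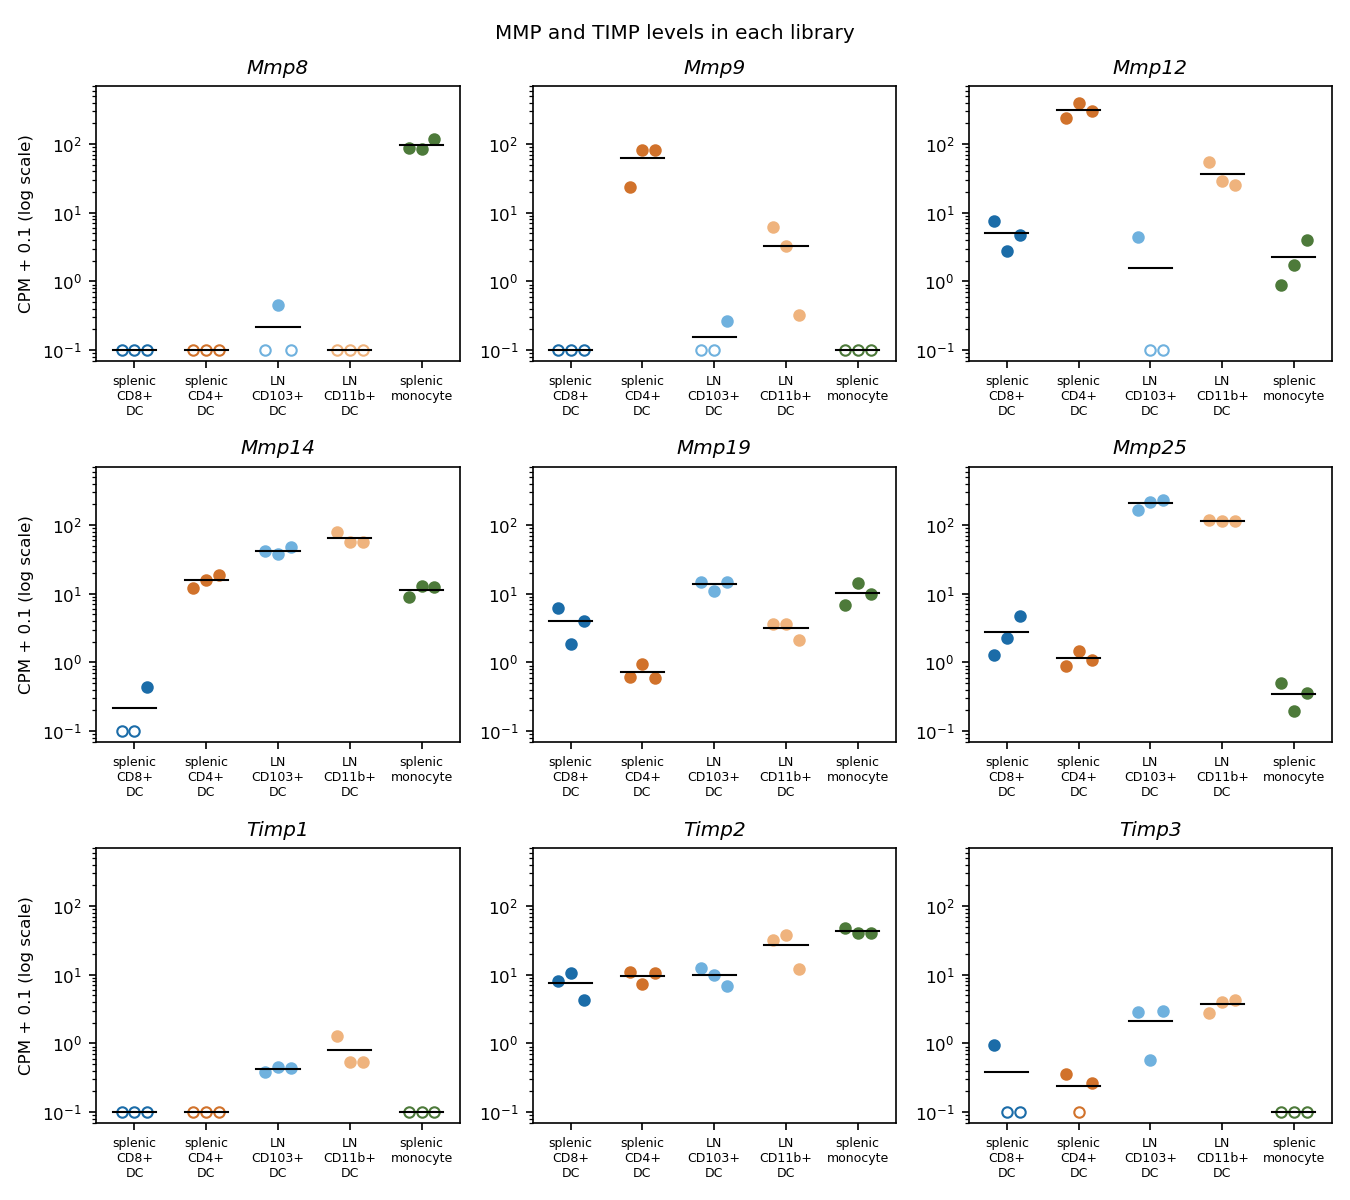
CPM + 0.1 on a log axis for each of the 9 genes, with 1 point per library, open points for a count of 0 and a black bar at the mean of 3 libraries. Mmp8 points lie high in splenic monocytes, Mmp9 and Mmp12 points in splenic CD4+ DCs and Mmp25 points in both LN DC subtypes, while Timp2 is found in all 15 libraries.

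Mmp8 (ENSMUSG00000005800, mm10 chr9:7558429-7568486, plus strand), the collagenase best known from neutrophil granules, was found almost wholly in splenic monocytes. The 3 monocyte libraries held 86.9, 84.3 and 117 CPM (mean 96.1 ± 18.3 SD, n = 3). LN CD103+ DCs held 3 counts, all in replicate 2, and the 9 libraries of the other subtypes held none. The monocyte libraries were therefore far above every other library. Splenic monocytes were at least 785-fold above splenic CD8+ DCs (adjusted p = 1.44e-08, edgeR quasi-likelihood test, as for each adjusted p here), with a floor of 3 counts over the group standing in for 0. The bounds were at least 629-fold against splenic CD4+ DCs and at least 662-fold against LN CD11b+ DCs (adjusted p = 2.40e-08 and 1.61e-08). Against LN CD103+ DCs the ratio was 697, with a 95% exact Poisson interval of 238 to 3379 (adjusted p = 1.23e-08). With fewer libraries at 0 the floor is less deep, so that leaving out splenic CD8+ DC replicate 1 or 3, splenic CD4+ DC replicate 1 or LN CD11b+ DC replicate 1 lowered the bounds to 517, 506, 380 and 364. Without LN CD103+ DC replicate 2 the ratio became a bound of 423. Without any 1 of the monocyte libraries, Mmp8 exceeded 1 CPM in too few libraries and left the test.

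Markers of neutrophils were also high in the monocyte libraries. Of the 14 markers fixed for neutrophils, all had a count in splenic monocytes, and 10 had a mean over 1 CPM. Their summed level was 609 to 773 CPM there, and it lay between 0.819 and 33.2 CPM in the other 12 libraries. The list includes S100a8 and S100a9, which the paper also names as signature genes of monocytes, so that the sum is not particular to neutrophils. Granule genes were among them, with Ngp at 99.3 ± 30.6 CPM and Ltf at 49.8 ± 7.96 CPM (n = 3). Markers of mature neutrophils were near 0, with Ly6g at 2, 0 and 2 counts, Cxcr2 at 2, 10 and 0 counts and Retnlg at 0, 4 and 1 counts in monocyte replicates 1 to 3. The monocyte library with the highest Mmp8, replicate 3, also had the highest summed neutrophil markers. The part of neutrophils or their precursors in the Mmp8 level was not tested, and in a sorted pool a few cells rich in a transcript cannot be told apart from many cells with little of it. The same holds for every level given here: fewer expressing cells and less RNA per cell cannot be told apart.

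Mmp9 (ENSMUSG00000017737, chr2:164940780-164955850, plus strand), a gelatinase that cleaves denatured collagen and the type IV collagen of basement membranes, was a gene of splenic CD4+ DCs. The splenic CD4+ DC libraries held 23.7, 82.0 and 81.1 CPM (mean 62.3 ± 33.4). LN CD11b+ DCs, the DC2 of the LN, held 56, 22 and 1 counts (mean 3.16 ± 2.90 CPM), LN CD103+ DCs held 1 count and splenic CD8+ DCs and splenic monocytes held none. The 3 splenic CD4+ DC libraries lay above all others, and the lowest of them, replicate 1, was still above each LN CD11b+ DC library.

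Splenic CD4+ DCs were 19.7-fold above LN CD11b+ DCs in Mmp9 (log2 of LN over spleen -4.18, SE 0.64 as derived from the F of the test, adjusted p = 1.44e-04). They were at least 509-fold above splenic CD8+ DCs and at least 477-fold above splenic monocytes (adjusted p = 4.59e-06 and 1.74e-06), and the ratio to LN CD103+ DCs was 1354 (interval 243 to 53477, adjusted p = 1.90e-06). In the LN, CD11b+ DCs were above CD103+ DCs with a ratio of 68.6 (interval 12.3 to 2711, adjusted p = 0.00609). These sizes moved with single libraries although the calls held. Without LN CD11b+ DC replicate 1 the fold of splenic CD4+ over LN CD11b+ DCs was 36.1 and the LN ratio was 37.5. Without splenic CD8+ DC replicate 1 or 3 or splenic monocyte replicate 2 the bounds were 335, 327 and 263. Without LN CD103+ DC replicate 2 the ratios to LN CD103+ DCs were 822 and 41.7, and without replicate 3, which held the only count, they became bounds of 326 and 16.5.

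Mmp12 (ENSMUSG00000049723, chr9:7344381-7369499, plus strand), the elastase named for macrophages, was found in the same DC2 subtypes at higher levels. It reached 243, 401 and 298 CPM in splenic CD4+ DCs (mean 314 ± 80.6) and 54.6, 28.6 and 25.2 CPM in LN CD11b+ DCs (mean 36.1 ± 16.1). Splenic CD8+ DCs had 7.41, 2.70 and 4.58 CPM and splenic monocytes 0.787, 1.65 and 3.95 CPM. LN CD103+ DCs had 31 counts in replicate 1 and none in the other replicates, and replicate 1 was also the library with the high B cell markers. The groups of splenic CD4+ DCs and LN CD11b+ DCs overlapped neither each other nor any other group.

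Splenic CD4+ DCs exceeded LN CD11b+ DCs 8.69-fold in Mmp12 (adjusted p = 3.87e-04), splenic CD8+ DCs 64.1-fold (adjusted p = 3.09e-06) and splenic monocytes 147-fold (adjusted p = 3.24e-07). LN CD11b+ DCs in turn exceeded splenic CD8+ DCs 7.38-fold (adjusted p = 0.00111) and LN CD103+ DCs 25.1-fold (adjusted p = 2.35e-04). The 3 lowest subtypes did not differ from each other past the threshold, with adjusted p from 0.0745 to 0.577. With no filter on low counts, LN CD103+ DCs and splenic monocytes were both below splenic CD8+ DCs past the threshold (adjusted p = 2.89e-06 and 0.00226), and with the 12 DC libraries alone and a replicate block LN CD103+ DCs were so too (adjusted p = 0.0369). Leaving out LN CD103+ DC replicate 1 raised the LN fold to at least 176 and brought the differences of LN CD103+ DCs from splenic CD8+ DCs and from splenic monocytes past the threshold. Leaving out splenic monocyte replicate 3 raised the fold of splenic CD4+ DCs over monocytes to 257. Summed macrophage markers were highest in splenic CD4+ and LN CD11b+ DCs, the subtypes highest in Mmp12. The summed level of 10 macrophage markers lay between 1061 and 1349 CPM in splenic CD4+ DCs, between 651 and 967 CPM in LN CD11b+ DCs and at or below 542 CPM elsewhere. Below these the order differed. Splenic monocytes had 476 to 542 CPM against 184 to 288 CPM in splenic CD8+ DCs, whose mean Mmp12 was higher. The part of macrophage RNA in the Mmp12 level was not tested. Of the exon bases of Mmp12, 2.17% are shared with Mmp1b on the other strand, which had 1 count in all 15 libraries.

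Mmp19 (ENSMUSG00000025355, chr10:128790953-128800824, plus strand), a secreted MMP of broad tissue distribution, had the opposite order among splenic DCs. LN CD103+ DCs had 14.9, 10.9 and 14.9 CPM (mean 13.6 ± 2.33) and splenic monocytes 6.69, 14 and 9.74 CPM (mean 10.1 ± 3.67). Splenic CD8+ DCs had 6.10, 1.75 and 3.89 CPM, LN CD11b+ DCs 3.55, 3.52 and 1.99 CPM and splenic CD4+ DCs 0.516, 0.852 and 0.499 CPM. The libraries of LN CD103+ DCs overlapped those of monocytes, splenic CD8+ DCs overlapped LN CD11b+ DCs and splenic CD4+ DCs were below every other library.

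DC1 exceeded DC2 in Mmp19 by 6.29-fold in spleen and 4.50-fold in LN (adjusted p = 0.00112 and 0.00219), and LN exceeded spleen by 3.47-fold in DC1 and 4.85-fold in DC2 (adjusted p = 0.00176 and 0.00303). The difference between monocytes and splenic CD8+ DCs, 2.59-fold (adjusted p = 0.0119), lost the call without splenic monocyte replicate 2 (adjusted p = 0.0816) or splenic CD8+ DC replicate 2 (adjusted p = 0.0623). These values share reads with another gene. Of the exon bases of Mmp19, 789 (23.1%) are also exon of Tmem198b on the other strand, and reads were counted without strand and for each gene they overlapped. Tmem198b had the same order, with a mean of 11.4 ± 2.91 CPM for LN CD103+ DCs and 11.1 ± 1.83 for splenic monocytes, then 4.59 ± 1.77 for splenic CD8+ DCs, 3.86 ± 0.288 for LN CD11b+ DCs and 2.11 ± 0.302 for splenic CD4+ DCs. Reads on the shared bases cannot be told apart, and the counts do not say how many there are. The values of Mmp19 may hold reads of Tmem198b.

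**Figure D2:**
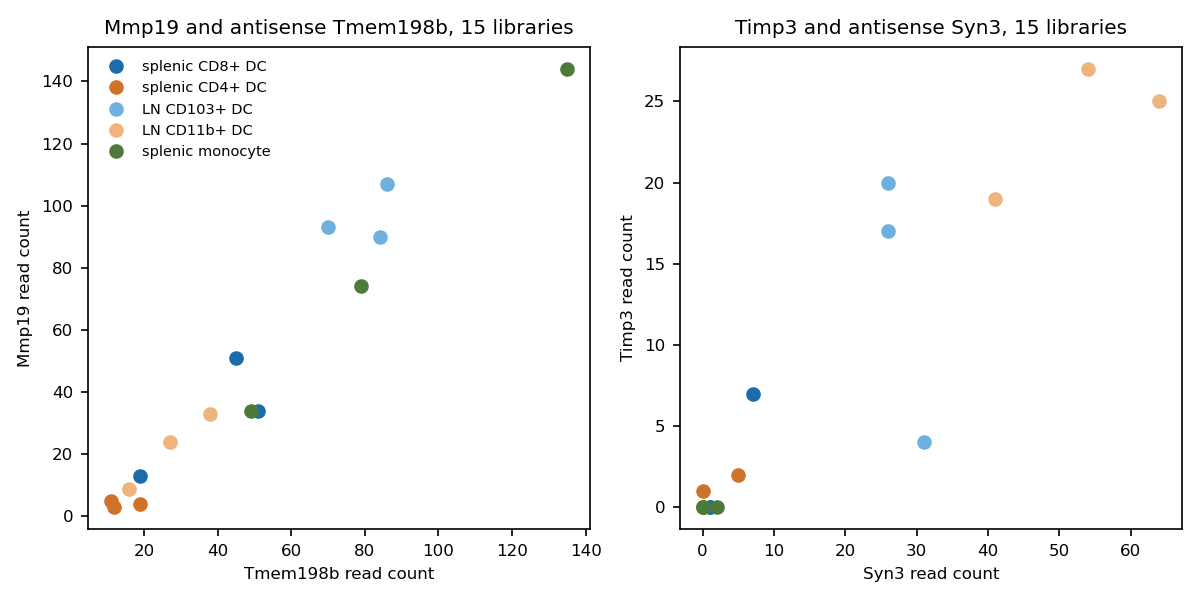
Read counts of Mmp19 against Tmem198b (left) and of Timp3 against Syn3 (right), where each pair overlaps on opposite strands, with 1 point per library. In each pair the counts mostly rise together over the 15 libraries, from 0 or near 0 to 144 for Mmp19 and to 27 for Timp3. An exception is LN CD103+ DC replicate 2, with 31 counts of Syn3 and 4 of Timp3.

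Of the membrane-held MMPs, Mmp14 (ENSMUSG00000000957, chr14:54431604-54441258, plus strand) encodes a transmembrane collagenase that also activates the precursor of the gelatinase Mmp2. LN CD11b+ DCs had 78.9, 56.7 and 55.9 CPM (mean 63.9 ± 13.1) and LN CD103+ DCs 41.4, 38.3 and 47.4 CPM (mean 42.4 ± 4.63). Splenic CD4+ DCs had 11.9, 15.9 and 18.8 CPM (mean 15.5 ± 3.49) and splenic monocytes 8.85, 12.9 and 12.2 CPM (mean 11.3 ± 2.18). Splenic CD8+ DCs had 3 counts, all in replicate 3. Both LN subtypes were thus above all spleen libraries, and the splenic CD8+ DC libraries were below all others.

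In DC1 the ratio of LN to spleen for Mmp14 was 346 (interval 118 to 1679, adjusted p = 4.06e-10), while in DC2 LN exceeded spleen 4.12-fold (adjusted p = 2.31e-05). The difference between these differences was itself past the threshold (log2 6.20, SE 0.61, adjusted p = 3.72e-06), which held for 11.2% of all genes tested (5.17% higher in DC1 and 6.03% lower) and for no other of the 8 genes tested. Within the spleen, CD4+ DCs were above CD8+ DCs with a ratio of 127 (interval 43.4 to 614, adjusted p = 2.14e-08) and monocytes with a ratio of 92.6 (interval 31.7 to 449, adjusted p = 1.17e-08). Leaving out splenic CD8+ DC replicate 1 lowered the ratios to 228, 83.5 and 61.0, and leaving out replicate 3 turned them into bounds of 223, 81.6 and 59.6. The LN subtypes did not overlap, but their difference (1.51-fold, adjusted p = 0.180) did not pass, and splenic CD4+ DCs and monocytes overlapped (adjusted p = 0.234).

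Mmp25 (ENSMUSG00000023903, chr17:23629458-23645269, minus strand), a leukocyte MMP held at the membrane by a lipid anchor, was a gene of LN DCs. LN CD103+ DCs had 168, 219 and 232 CPM (mean 206 ± 33.7) and LN CD11b+ DCs 117, 113 and 114 CPM (mean 115 ± 2.08). Splenic CD8+ DCs had 1.20, 2.16 and 4.70 CPM, splenic CD4+ DCs 0.773, 1.36 and 0.999 CPM and splenic monocytes 0.393, 0.0972 and 0.263 CPM. No spleen library came near the LN libraries.

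LN exceeded spleen in Mmp25 by 76.9-fold in DC1 (log2 6.24, SE 0.35, adjusted p = 2.39e-10) and by 110-fold in DC2 (log2 6.78, SE 0.39, adjusted p = 1.10e-09), and the difference between these values did not pass the threshold (log2 -0.54, SE 0.51, adjusted p = 0.560). LN CD103+ DCs exceeded splenic monocytes 821-fold (adjusted p = 7.31e-12), where monocytes had 5 counts in all. Without splenic CD8+ DC replicate 3 the fold in DC1 was 123. The smaller differences were less firm. LN CD103+ over LN CD11b+ DCs was 1.80-fold (adjusted p = 0.0418) with no overlap of libraries, and the call was lost without any 1 of 5 of the 6 LN libraries, all but LN CD103+ DC replicate 1 (adjusted p = 0.0957 to 0.141). It was also lost without splenic CD8+ DC replicate 2 or splenic monocyte replicate 1 or 3, libraries of neither subtype compared (adjusted p = 0.0534 to 0.0581), and with the 12 DC libraries alone (adjusted p = 0.0769), though not when a replicate block was added to these (adjusted p = 0.0217). With the first run alone of the monocyte libraries it was lost too (adjusted p = 0.0577). Splenic CD8+ over CD4+ DCs was 2.57-fold (adjusted p = 0.0260) with overlapping libraries, and the call was lost without splenic CD8+ DC replicate 3 (1.60-fold, adjusted p = 0.262), splenic CD4+ DC replicate 1 (adjusted p = 0.0960) or splenic CD4+ DC replicate 3 (adjusted p = 0.0559). It was also lost with limma on log2(TPM + 1) (adjusted p = 0.0980) and with an edgeR fit of these 2 subtypes alone (adjusted p = 0.207). Splenic CD4+ DCs over monocytes was 4.16-fold (adjusted p = 0.0172), and the call was lost without splenic monocyte replicate 2 (adjusted p = 0.0993) or splenic CD4+ DC replicate 2 (adjusted p = 0.0663). This call was also lost with limma (adjusted p = 0.104), an edgeR fit of these 2 subtypes (adjusted p = 0.0850) and the first monocyte run alone (adjusted p = 0.0893).

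The stretches upstream of the start sites are shown for Mmp12 and for Mmp14 and Mmp25, the membrane-held MMPs among the 9 genes. These genes are the MMPs of the set that differ between DC subtypes and have a sequence at hand. Timp2 and Timp3 also differ and have a sequence, but are not shown. Sequences are from RefSeq on GRCm38.p6, and 7 of the 9 genes had an entry, all but Mmp9 and Mmp19. Each line gives the 150 bases that end 1 base before the start site, written 5′ to 3′ on the strand of the gene, with capitals for any match to TGANTCA (bound by AP-1), TATAAA (the TATA box), GGGCGG (the GC box) or GAGGAAG (bound by PU.1) on either strand. Mmp12 has 2 start sites in this table, and exon counts do not say which was used.
Mmp12, chr9:7344247-7344396, plus strand: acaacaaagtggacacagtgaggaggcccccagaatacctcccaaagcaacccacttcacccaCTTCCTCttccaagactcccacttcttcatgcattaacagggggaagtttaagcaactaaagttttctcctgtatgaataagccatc
Mmp12, chr9:7347224-7347373, plus strand: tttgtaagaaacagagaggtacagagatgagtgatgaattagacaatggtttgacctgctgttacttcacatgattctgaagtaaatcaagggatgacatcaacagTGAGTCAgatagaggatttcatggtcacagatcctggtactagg
Mmp14, chr14:54431448-54431597, plus strand: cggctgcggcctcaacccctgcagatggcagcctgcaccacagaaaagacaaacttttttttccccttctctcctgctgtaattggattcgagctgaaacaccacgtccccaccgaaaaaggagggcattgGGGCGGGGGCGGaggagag
Mmp25, chr17:23645270-23645419, minus strand: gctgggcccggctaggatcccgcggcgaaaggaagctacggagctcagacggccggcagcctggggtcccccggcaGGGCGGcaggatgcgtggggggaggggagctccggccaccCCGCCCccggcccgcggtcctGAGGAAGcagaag

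Over the 250 bases before each start site, the AP-1 letters were found in 6.75% of 32817 promoters and, among the 8 stretches of the 7 genes, only before the downstream start of Mmp12, where the match begins 44 bases upstream. The GC box was in 32.7% of promoters and stood before Mmp14, Mmp25, Timp1, Timp2 and Timp3, with a pair of matches each for Mmp14 and Mmp25. The PU.1 letters were in 10.6% of promoters and stood before Mmp8, Mmp25 and the upstream start of Mmp12, and TATAAA, in 12.4% of promoters, stood before none. The upstream bases were 44.8% G or C for Mmp8, 39.6% for the downstream start of Mmp12, 55.2% for Mmp14 and 66.0% for Mmp25, against a median of 52.4% and quartiles of 45.2% and 61.2% over all promoters. Both stretches of Mmp12 and that of Mmp8 were below the lower quartile. Mmp25, Timp2 (68.0%) and Timp3 (65.6%) were above the upper. A match describes these letters and not a bound site.

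Among the inhibitors, Timp2 (ENSMUSG00000017466, chr11:118301069-118355740, minus strand), which inhibits MMPs and also bridges Mmp14 to the precursor of Mmp2, was the only one found in every library. Splenic monocytes had 47.2, 40.7 and 39.7 CPM (mean 42.6 ± 4.06) and LN CD11b+ DCs 32.2, 37.5 and 11.9 CPM (mean 27.2 ± 13.5). Means in LN CD103+ DCs, splenic CD4+ DCs and splenic CD8+ DCs were 9.64 ± 2.81, 9.56 ± 1.93 and 7.55 ± 3.17 CPM. The monocyte libraries were above all DC libraries, LN CD11b+ DC replicate 3 fell among the libraries of LN CD103+ DCs and the 3 lower subtypes overlapped.

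Splenic monocytes exceeded splenic CD8+ DCs in Timp2 by 5.64-fold, splenic CD4+ DCs by 4.45-fold and LN CD103+ DCs by 4.41-fold (adjusted p = 3.16e-05, 1.44e-04 and 9.94e-05), but their difference from LN CD11b+ DCs did not pass (1.56-fold, adjusted p = 0.152). LN CD11b+ DCs exceeded splenic CD4+ DCs 2.85-fold (adjusted p = 0.00417) and LN CD103+ DCs 2.82-fold (adjusted p = 0.0107). The LN call was lost without LN CD103+ DC replicate 3 (adjusted p = 0.0603) or LN CD11b+ DC replicate 2 (adjusted p = 0.0639). The 3 lower subtypes did not differ from each other past the threshold (adjusted p = 0.464 to 0.984).

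Timp3 (ENSMUSG00000020044, chr10:86300372-86349506, plus strand), an inhibitor that stays bound to matrix and also blocks ADAM proteases, was low throughout. LN CD11b+ DCs had 25, 27 and 19 counts (mean 3.62 ± 0.811 CPM) and LN CD103+ DCs 20, 4 and 17 counts (mean 2.03 ± 1.35 CPM). Splenic CD8+ DCs had 7 counts, all in replicate 1, splenic CD4+ DCs had 3 counts and splenic monocytes had none. LN CD11b+ DC libraries were above all spleen libraries, whereas LN CD103+ DC replicate 2 lay below splenic CD8+ DC replicate 1.

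The ratio of LN CD11b+ to splenic CD4+ DCs in Timp3 was 23.7 (interval 8.10 to 115, adjusted p = 0.00641), and without splenic CD4+ DC replicate 1 it was 42.9. For LN CD103+ against splenic CD4+ DCs it was 13.3 (interval 4.53 to 64.3, adjusted p = 0.0175), or 24.05 without splenic CD4+ DC replicate 1, and the call was lost without splenic CD4+ DC replicate 2 (adjusted p = 0.0584). LN CD11b+ DCs were at least 27.7-fold and LN CD103+ DCs at least 15.5-fold above splenic monocytes (adjusted p = 6.46e-04 and 0.00178), bounds that fell to 15.3 and 8.56 without splenic monocyte replicate 2. LN CD103+ over splenic CD8+ DCs was 7.26-fold (adjusted p = 0.0377), and the bound without splenic CD8+ DC replicate 1 was 10.9-fold, but the call was lost without LN CD103+ DC replicate 1 or 3 or splenic CD8+ DC replicate 2 or 3 (adjusted p = 0.10 to 0.114). It was also lost with an edgeR fit of these 2 subtypes alone (adjusted p = 0.0600). Here too reads are shared. Of the exon bases of Timp3, 21.3% are exon of Syn3 on the other strand, and Syn3 had 7.95 ± 1.09 CPM in LN CD11b+ DCs, 3.85 ± 0.392 CPM in LN CD103+ DCs and at most 0.362 ± 0.411 CPM in the spleen subtypes. Timp3 reads on the shared bases cannot be told apart from those of Syn3, and the counts do not say how many there are. In splenic CD8+ DC replicate 1, which held all 7 Timp3 counts of that subtype, Syn3 had 7 counts and the fibroblast collagen Col3a1 had 10, against at most 1 and 0 in the other replicates.

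Timp1 (ENSMUSG00000001131, chrX:20870166-20874735, plus strand), a secreted inhibitor that is weak against membrane-type MMPs, had 11, 3 and 2 counts in LN CD11b+ DCs and 2, 3 and 2 counts in LN CD103+ DCs. All 9 spleen libraries had none, and every LN library had some. Against a floor of 3 counts over the group, LN CD11b+ DCs were at least 5.62-fold above splenic CD8+ DCs and at least 4.50-fold above splenic CD4+ DCs, and no test was made. Stromal markers of the LN were found beside these low inhibitor counts. Col1a1 was at 0.911 ± 0.0498 CPM, Col3a1 at 1.90 ± 0.403 CPM and Dcn at 0.863 ± 0.272 CPM in LN CD11b+ DCs, these 3 had no count in splenic CD4+ DCs, and Ccl21a was at 56.2 ± 27.1 CPM against 0.993 ± 0.313 CPM. All 14 markers fixed for stromal and endothelial cells had a count in LN CD103+ DCs and 13 in LN CD11b+ DCs, with 10 in splenic CD8+ DCs and 7 each in splenic CD4+ DCs and splenic monocytes. Their summed level was 72.4 to 151 CPM over the LN libraries and 66.9 to 115 CPM over the splenic DC libraries, where Pecam1 made up most of it in CD4+ DCs (83.3 ± 2.13 CPM). Markers of T and NK cells also moved with the organ, and the summed level of the 5 was 20.2 to 50.7 CPM over the LN libraries and 0.393 to 5.16 CPM over the spleen libraries. The part of stromal, T or NK cell RNA in Timp1 and Timp3 was not tested.

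Between subtypes, 56 of the 80 tests of a gene in a pair of subtypes passed the threshold. Among them are calls of Mmp8, Mmp9 and Timp3 that the filter on low counts favoured. The 10 pairs share subtypes, so that their counts are not independent, and their values are given side by side. In the spleen, DC1 were above DC2 in Mmp19 and Mmp25 (13.1% of all genes tested were above) and below in Mmp9, Mmp12 and Mmp14 (14.4% were below), which is 5 of 8 genes against 27.4% in either direction. In the LN, CD103+ DCs were above CD11b+ DCs in Mmp19 and Mmp25 (5.22%) and below in Mmp9, Mmp12 and Timp2 (7.73%), also 5 of 8, against 12.9%. Between organs, LN DC1 were above splenic DC1 in Mmp14, Mmp19, Mmp25 and Timp3 (23.8%) and below in none of the 8 (21.8%), against 45.6% in either direction. LN DC2 were above splenic DC2 in the same 4 genes and in Timp2 (19.3%) and below in Mmp9 and Mmp12 (13.8%), against 33.1%.

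Splenic monocytes were above splenic CD8+ DCs in Mmp8, Mmp14, Mmp19 and Timp2 (20.4%) and below in Mmp25 (21.7%), against 42.1% in either direction. Their 3 higher genes against splenic CD4+ DCs were Mmp8, Mmp19 and Timp2 (23.8%) and their 3 lower genes Mmp9, Mmp12 and Mmp25 (24.2%), against 48%. Monocytes exceeded LN CD103+ DCs in Mmp8 and Timp2 (24.6%) and were below them in Mmp14, Mmp25 and Timp3 (28.6%), against 53.2%. Compared with LN CD11b+ DCs they were above in Mmp8 and Mmp19 (21.3%) and below in Mmp9, Mmp12, Mmp14, Mmp25 and Timp3 (26.5%), against 47.8%. Across organ and lineage, LN CD103+ DCs were above splenic CD4+ DCs in Mmp14, Mmp19, Mmp25 and Timp3 (24.8%) and below in Mmp9 and Mmp12 (22.2%), against 47%. LN CD11b+ DCs were above splenic CD8+ DCs in 6 of the 8 genes, all but Mmp8 and Mmp19 (22.5%), and below in none (17.3%), against 39.9%. Mmp9 and Mmp12 were above each of the 4 other subtypes in splenic CD4+ DCs (2.52% of all genes), Mmp25 in LN CD103+ DCs (3.18%) and Mmp8 in splenic monocytes (9.35%), while none of the 8 was so in splenic CD8+ DCs (2.83%) or LN CD11b+ DCs (0.747%).

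**Figure D3:**
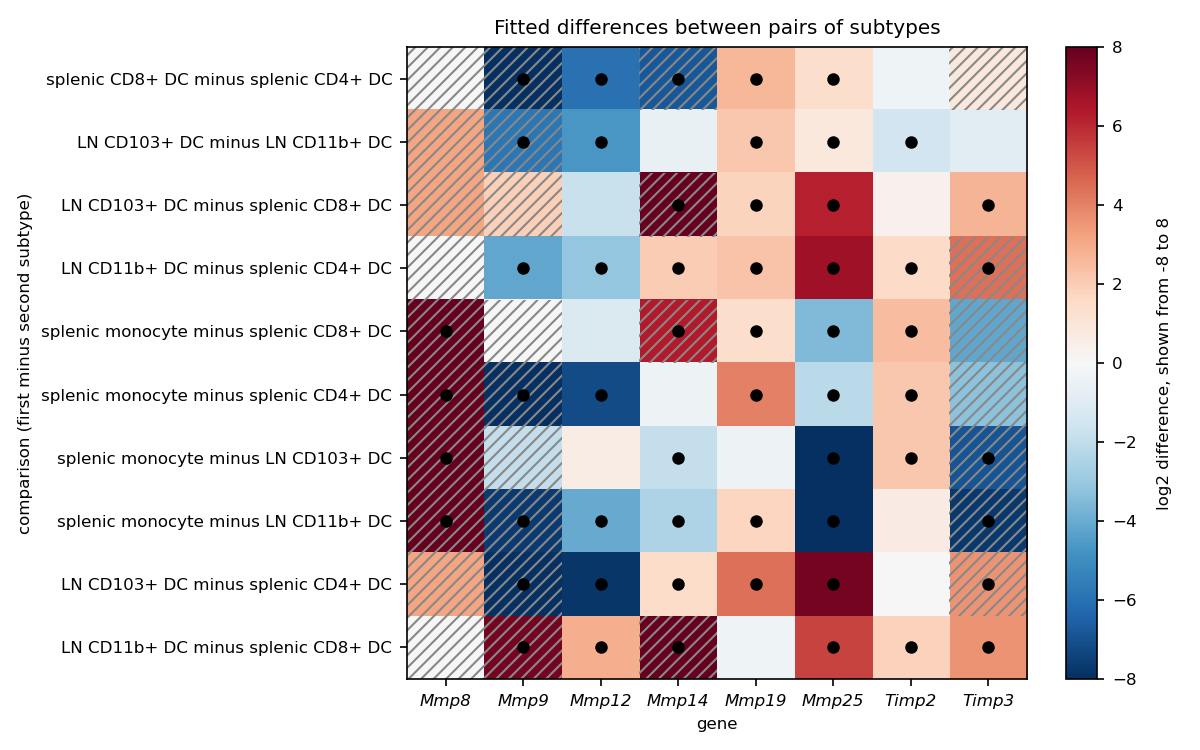
Fitted log2 differences between pairs of subtypes for the 8 genes tested, red where the subtype named first is higher and blue where it is lower, with a dot for an adjusted p under 0.05. Hatched cells have a subtype with at most 3 counts in all, where the fitted size depends on the default prior count of edgeR, and 56 of the 80 cells carry a dot.

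Levels of different genes were compared in TPM, which divides a count by the exon length of its gene and scales each library to the same sum. Over 23 MMP genes the sum was 288 ± 25.1 TPM for LN CD103+ and 252 ± 28.0 TPM for LN CD11b+ DCs. The spleen had 176 ± 43.9 TPM for CD4+ DCs, 129 ± 20.3 TPM for monocytes and 15.8 ± 4.60 TPM for CD8+ DCs (n = 3). The splenic CD8+ DC libraries were below all others. In splenic CD4+ DCs, Mmp12 made up 61.4% of the MMP sum and Mmp9 23.2%, and in splenic monocytes Mmp8 made up 78.6%. In the LN, Mmp25 made up 47.8% in CD103+ and 32.7% in CD11b+ DCs. Mmp23, not a member of the set, made up 26.2% and 27.2%, and Mmp14 12.8% and 23.3%. Over the 4 TIMP genes the sum was 4.73, 6.25 and 6.96 TPM in splenic CD8+, splenic CD4+ and LN CD103+ DCs, 19.4 ± 7.77 TPM in LN CD11b+ DCs and 28.3 ± 3.55 TPM in splenic monocytes. Timp2 made up 79.4% to 100% of it in the 5 subtypes.

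**Figure D4:**
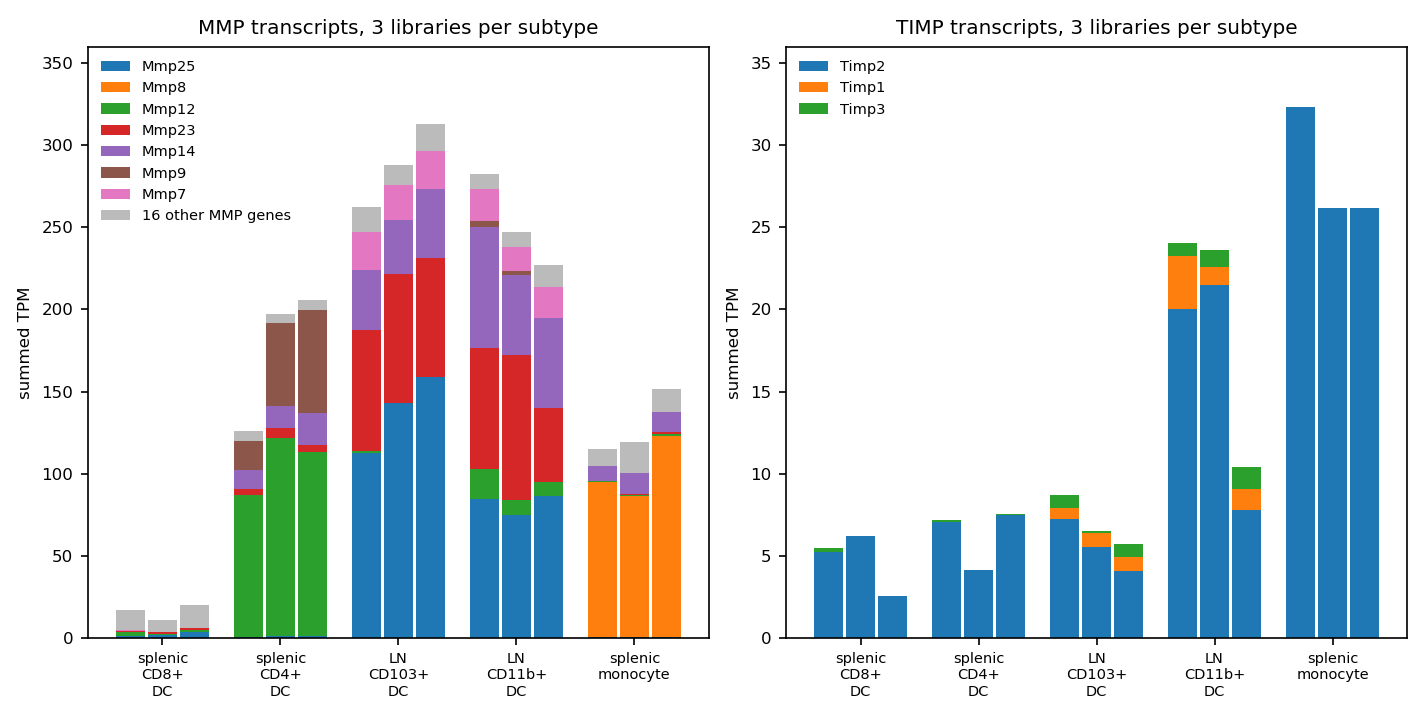
Summed TPM of 23 MMP genes (left) and of the TIMP genes with a count (right) in each of the 15 libraries, stacked by gene. MMP bars are lowest in splenic CD8+ DCs at 15.8 TPM on average and highest in LN DCs. The leading MMP gene is Mmp12 in splenic CD4+ DCs and Mmp8 in splenic monocytes. In LN DC libraries the leading gene is Mmp25, except in LN CD11b+ DC replicate 2, where Mmp23 leads.

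Of the 18 other MMP and TIMP genes, 7 passed the filter and 5 of these differed among subtypes, a share near the 73.5% of all genes tested. Mmp1a, Mmp3, Mmp10, Mmp16 and Timp4 had no count in any library. Mmp23, which encodes a membrane-anchored MMP released by furin-like cleavage, reached 77.7 ± 5.30 CPM in CD103+ and 68.5 ± 26.2 CPM in CD11b+ DCs of the LN. Spleen means were 0.916 ± 0.389 CPM for CD8+ DCs, 4.71 ± 1.98 for CD4+ DCs and 0.478 ± 0.419 for monocytes. LN exceeded spleen by 84.8-fold in DC1 (adjusted p = 2.38e-09) and 14.5-fold in DC2 (adjusted p = 2.93e-07) in Mmp23, and these differed from each other (log2 2.53, SE 0.57, adjusted p = 0.00709).

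Mmp7, a small secreted MMP without the hemopexin domain, reached 10.7 ± 0.439 CPM in CD103+ and 7.84 ± 0.610 CPM in CD11b+ DCs of the LN, with 4 counts in the 6 splenic DC libraries and none in monocytes. Its ratio of LN to spleen was 131 in DC1 (interval 36.3 to 1082, adjusted p = 7.54e-07) and 77.0 in DC2 (interval 21.3 to 636, adjusted p = 6.32e-06), and 11.5% of its exon bases are shared with an antisense gene. Mmp7 passed the filter only through LN libraries, so that the filter favoured these calls. Mmp20, the MMP of tooth enamel, was also found in the LN, with 3, 9 and 18 counts in CD103+ DCs and 14, 14 and 11 in CD11b+ DCs, against 1 count in all spleen libraries. Mmp28, a secreted MMP of epithelia and macrophages, went the other way in DC1, where LN CD103+ DCs were 7.45-fold below splenic CD8+ DCs (adjusted p = 0.00290). Its means were 4.41 ± 3.13 and 2.37 ± 0.489 CPM in CD8+ DCs and monocytes of the spleen. Splenic CD4+ DCs were 22.4-fold below splenic CD8+ DCs (adjusted p = 6.83e-04). In DC2 the difference between LN and spleen did not pass the threshold (adjusted p = 0.331). In Mmp28, 12% of the exon bases are shared with an antisense gene.

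**Figure D5:**
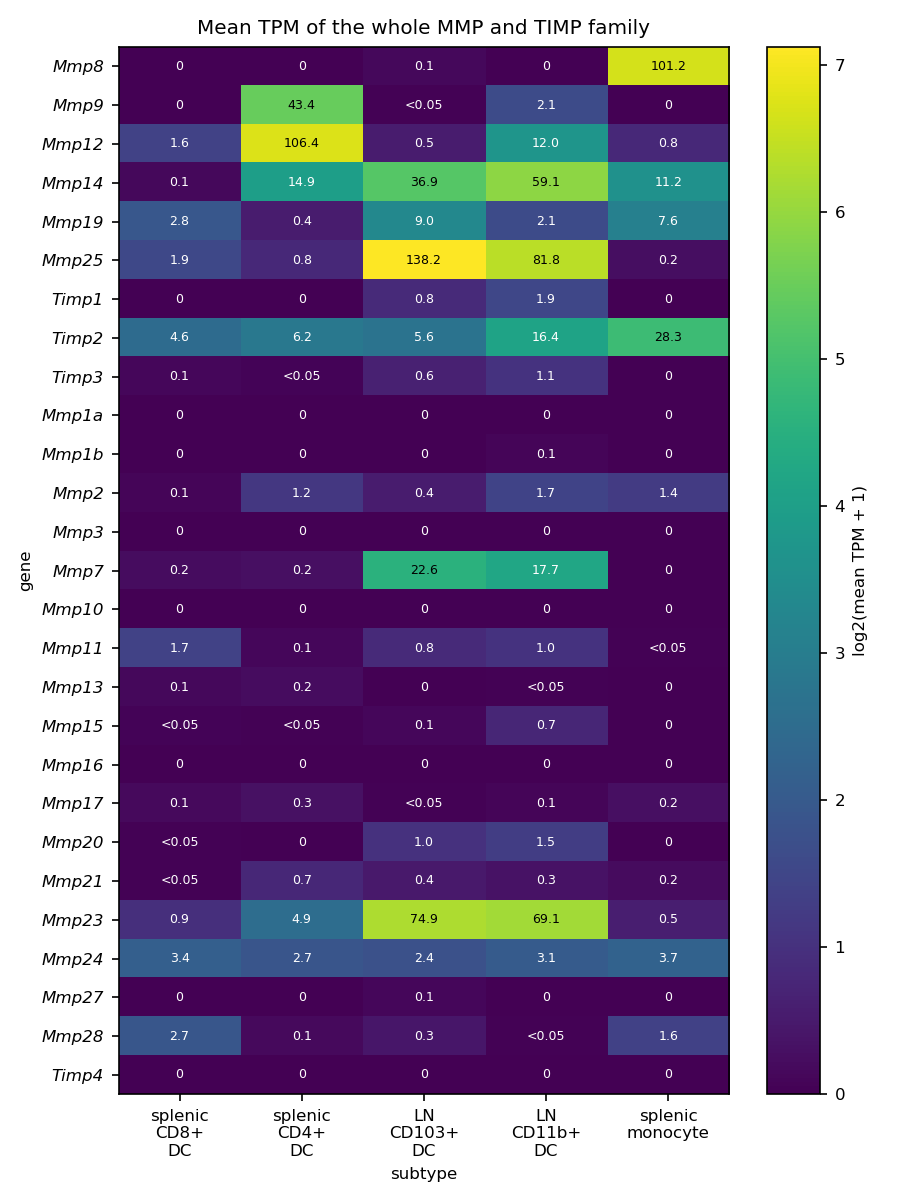
Mean TPM over 3 libraries of all 27 MMP and TIMP genes in each subtype, printed in each cell and coloured by log2(mean TPM + 1). Mmp25, Mmp23, Mmp14 and Mmp7 are high in both LN DC columns, and 5 rows are 0 in every column.

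Proteins that bind, activate or clear MMPs and TIMPs were all but 1 above the filter (14 of 15), and all 14 differed among subtypes (73.5% of all genes tested). LN were above spleen in 7 and below in 2 of the 14 in DC1, against 23.8% above and 21.8% below over all genes, and likewise in DC2, against 19.3% and 13.8%, with a median log2 difference of 0.89 in DC1 and 0.84 in DC2 against 0.0048 and 0.050 over all genes tested. Adam8, a leukocyte sheddase, was highest in LN CD103+ DCs (1005 ± 153 CPM) and lowest in splenic monocytes (27.6 ± 5.70 CPM). Lrp1, an endocytic receptor that clears Mmp9 and TIMP complexes, was highest in splenic monocytes (970 ± 21.8 CPM), with 13.3 ± 3.73 (splenic CD8+) to 58.3 ± 17.1 CPM (LN CD11b+) in DC subtypes (adjusted p = 3.60e-10 or below against each). Cd44, which docks Mmp9 and Mmp14 at the surface, was highest in LN CD11b+ DCs (707 ± 91.0 CPM) and the integrin Itgb1 in LN CD103+ DCs (632 ± 31.1 CPM), and both were lowest in splenic CD4+ DCs, at 151 ± 24.8 and 138 ± 47.3 CPM. Neither differed between the LN subtypes past the threshold (adjusted p = 0.240 and 0.408).

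Plasmin is a protease that can remove MMP propeptides, and of 7 genes of plasminogen activation 5 were tested and all 5 differed, beside 73.5% of all genes. Plaur, the urokinase receptor, had 416 ± 21.5 CPM in splenic monocytes and at most 15.4 ± 3.99 CPM in DC subtypes. Serpinb2, an inhibitor of plasminogen activators, had 54.7 ± 4.11 CPM in splenic monocytes and from 0.0930 ± 0.161 (LN CD103+) to 25.6 ± 8.95 CPM (splenic CD8+) in the DC subtypes. Plat, tissue plasminogen activator, reached 53.3 ± 2.70 CPM in CD103+ and 13.4 ± 1.34 CPM in CD11b+ DCs of the LN (3.97-fold apart, adjusted p = 0.00161), and splenic DCs and monocytes had 5 counts in all. Plau, urokinase, stayed low, with at most 2.18 ± 0.625 CPM in LN CD11b+ DCs.

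The genes most like each of the 8 over the 15 libraries were found by Pearson's r of log2 CPM, which is a description, since libraries of a subtype share their source and a gene with 1 high subtype is like any other of that kind. For Mmp8 these were Igkv5-48 (r = 0.998), the gene without a symbol ENSMUSG00000084956 (0.995) and Rab44 (0.995). For Mmp9 they were Zfp365 (0.957), Slc37a2 (0.940) and Cdhr3 (0.930), and for Mmp12 Acp5 (0.948), Sucnr1 (0.930) and Klri2 (0.923). Mmp14 was most like Adap1 (0.976), Parp10 (0.966) and B4galnt1 (0.960), and Mmp25 most like Sh3bp4 (0.996), Zmynd15 (0.993) and Rabgap1l (0.991). Mmp19 was most like its antisense neighbour Tmem198b (0.959), then Sart1 (0.940) and Gm6055 (0.923). Timp2 was most like Dmxl2 (0.934), C5ar1 (0.931) and Gpr160 (0.928), and Timp3 most like Gimap5 (0.959), Il23r (0.951) and Ehd3 (0.946). Among the 8 genes themselves r was highest for Mmp9 with Mmp12 (0.871) and for Mmp25 with Timp3 (0.844), and lowest for Mmp12 with Mmp19 (-0.845).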

How the data were processed

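RNA was measured in 15 libraries of 5 murine MP subtypes, grouped by sample title, and p-values measure the spread between replicates that were each a pool of 5 mice. For the deposited counts, the authors aligned reads to mm10 with STAR 2.4.0j and assigned unique alignments to exons of Ensembl genes with featureCounts of Subread 1.5.2, without strand and with a read over several genes counted for each. The TPM values were deposited by the authors after division by exon length. Symbols were found for 37607 of 38924 genes (96.6%) in GENCODE vM21. Exon overlaps were taken from the exon coordinates deposited with the counts, and the coordinates shown are of mm10.

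Counts were tested in R 4.3.3 with edgeR 4.0.16 (quasi-likelihood, TMM, 1 mean per subtype, 10 residual degrees of freedom) on genes with over 1 CPM in at least 3 libraries, with Benjamini-Hochberg adjustment across the 14456 genes of each comparison and a threshold of 0.05. An exact permutation test of 3 against 3 cannot go below p = 0.1 and was not used. Log2 CPM took a prior count of 2, and a group at 0 was given a floor of 3 counts. Fitted log2 differences took the default prior count of edgeR instead. Each SE is the absolute fitted log2 difference over the square root of its quasi-likelihood F. The members and lists were chosen with earlier results of these data known. Named genes outside the 9 are up to 4 per list that passed the F test, by highest mean CPM, and the 3 most alike genes of each tested member. Antisense neighbours and markers of other cells were chosen for print after their values were seen. The fits were tested on simulated data. Titles share replicate numbers between subtypes, and in 4 of 10 pairs of subtypes (CD8+ with CD4+ in spleen, CD103+ with CD11b+ in LN, and splenic CD4+ with each LN subtype) all 3 same-numbered libraries deviated together (r over 0.1, 0.117 to 0.375). Alternatives were RLE factors, DESeq2 1.42.0, other filters, limma 3.58.1 on log2(TPM + 1), fits of 2 subtypes, a replicate block, single runs of monocyte libraries and leaving out each library, and, chosen after the data were seen, the 12 DC libraries alone with and without the block.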

Additional observations from a re-analysis of the deposited data

Results flagged for a closer look

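The difference between LN and spleen in Mmp14 was not the same in DC1 and DC2, by a test of the difference itself (adjusted p = 3.72e-06, edgeR). LN exceeded spleen by 8.25 (SE 0.49) on the log2 scale in DC1 and by 2.05 (SE 0.29) in DC2, and every LN library was above every spleen library of its lineage. Splenic CD8+ DCs held 3 counts in all, so that the size of the difference in DC1 depends on the prior count, and without splenic CD8+ DC replicate 3 the fitted difference between the lineages was 9.20 against 6.20 with all libraries. The cause was not tested.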

How the results depend on the processing

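Of 2231 results recomputed for single genes under an alternative, 2189 kept their direction and side of the threshold, 33 lost the call, 9 gained one and 0 reversed a called direction. RLE factors, DESeq2, filterByExpr and the second run alone of monocyte libraries changed none of the calls. Without a filter on low counts 2 genes instead of 1 passed the interaction test (Mmp12, adjusted p = 0.0323), and likewise 2 without LN CD11b+ DC replicate 3 (Timp2, adjusted p = 0.0420). In LN CD103+ against LN CD11b+ DCs the 5 calls became 3 with limma on log2(TPM + 1), where Mmp9 (adjusted p = 0.0731) and Mmp25 (adjusted p = 0.0875) were lost, and 3 without LN CD103+ DC replicate 3 or LN CD11b+ DC replicate 2. In splenic monocytes against splenic CD8+ DCs the 5 calls became 3 without splenic monocyte replicate 2, where Mmp8 left the test and Mmp19 lost its call. With each library left out, the 56 calls over all pairs ranged from 50 to 57, the F test from 7 to 8, the interaction from 1 to 2, LN CD103+ minus LN CD11b+ from 3 to 5, LN CD103+ minus splenic CD4+ from 5 to 6, LN CD103+ minus splenic CD8+ from 3 to 4, LN CD11b+ minus splenic CD4+ at 7, LN CD11b+ minus splenic CD8+ at 6, splenic CD8+ minus splenic CD4+ from 4 to 5, and monocytes minus LN CD103+ from 4 to 6, minus LN CD11b+ from 6 to 7, minus splenic CD4+ from 4 to 6 and minus splenic CD8+ from 3 to 6.

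With a replicate block over all 15 libraries all 88 results for single genes kept their call, the interaction of Mmp14 was 6.19 on the log2 scale (adjusted p = 3.60e-06), and 11173 genes instead of 10623 passed the F test. The numbers met the criterion for pairing in 4 of 10 pairs of subtypes and in none with monocytes (r from -0.035 to 0.040). The 12 DC libraries alone, chosen after the data were seen, gave 55 of 56 results unchanged, all but the LN difference in Mmp25, and with the replicate block 55 of 56, all but Mmp12 in LN CD103+ against splenic CD8+ DCs, a pair that did not meet the criterion. Depth limits the low genes: Timp1, Timp3 and the groups with at most 3 counts give bounds or wide intervals, and zero counts there do not show absence.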
